A study of Mus musculus with 9 samples.

Results

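The genes described here make cholesterol and fatty acids, switch that synthesis on and off, or move and store the products. The set was drawn up by name and holds 39 genes, of 25160 genes in the count table. Each was found under its current symbol, and the transcript row with the highest total stood for the gene. A filter on low counts left 38 of the 39 in the tests, among 11256 genes in all. The gene left out was Fads2, the delta-6 desaturase, with 2 counts summed over the wild-type isotype libraries, 3 over the anti-CD40L libraries and 8 over the KO-labelled libraries.

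All libraries came from naive CD4+ T cells sorted from the spleens of C57BL/6 mice and cultured on plates coated with anti-CD3e at 1 µg/ml, which engages the T cell receptor complex. The coat also held 19 µg/ml of a further antibody. Wild-type cells met either an isotype control antibody (the wild-type isotype group) or an antibody against CD40L (the anti-CD40L group), the T cell surface ligand that binds CD40 on B cells and myeloid cells. The third group carried the KO label, for mice lacking CD40L in T cells only, and received the isotype antibody. Each group had 3 libraries. The driver of the Cre in the KO-labelled mice, the number of mice behind a library and the time in culture are unknown from the labels. A p-value here therefore covers only how far these libraries scatter, and part of that scatter may be technical.

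Sterol regulatory element-binding proteins (SREBPs) are transcription factors made as precursors in the endoplasmic reticulum membrane. When sterols are scarce, SCAP escorts them to the Golgi, where they are cut and released to the nucleus. INSIG proteins hold SCAP back when sterols are plentiful. SREBP-2, from Srebf2, acts mainly on the cholesterol pathway, and SREBP-1, from Srebf1, mainly on fatty acid synthesis. The liver X receptors (LXRs) respond to oxysterols in the opposite sense and switch on cholesterol export. T cells that are activated through their receptor raise lipid synthesis as they grow and divide.

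Total counts ran from 5316482 in anti-CD40L replicate 3 to 15565711 in KO-labelled replicate 3. Anti-CD40L replicate 3 stood apart: it had counts for 11673 genes against 14290 to 17428 in the others, and lay at 86.96 on the first principal component, with the others between -19.1 and 10.22. Values without it are given beside some of the calls and low values that it affects. Levels are given in CPM, a gene's counts scaled to a common library size. Cd40lg, the gene for CD40L, averaged 161 ± 24.5 CPM (SD, n = 3) in the wild-type isotype group and 144 ± 7.13 CPM in the KO-labelled group. That is a log2 fold change of -0.17 (SE 0.13, adjusted p = 0.935, edgeR). The labels do not say which part of the gene is deleted, so this level is no test of the label. Markers of T cells were high in all libraries, with summed levels from 3120 to 4040 CPM over 7 genes, and none of these genes passed the test in any comparison. Cd4 itself averaged 451 ± 33.1 CPM in the wild-type isotype group, and Cd8a was at most 2.82 CPM in any library.

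Compared per length of transcript in the wild-type isotype group, the levels of the set spanned a wide range within each role, and enzymes of synthesis stood at both ends. Elovl1, which extends saturated very long chain fatty acids, was highest at 117 ± 9.27 CPM per kilobase (SD, n = 3). The spans of 16 members overlap another annotated gene, whose reads could be counted with them, and Elovl1 overlaps Cdc20. Acly, which makes cytosolic acetyl-CoA from citrate, followed at 88.7 ± 3.14 CPM per kilobase. Hmgcs1, the cytosolic HMG-CoA synthase, stood at 85.7 ± 1.36 CPM per kilobase. Srebf2 at 84.9 ± 4.04 and Cyp51, the lanosterol demethylase, at 82.8 ± 9.27 CPM per kilobase differed from Acly and Hmgcs1 by less than their spreads. Among the factors, Srebf1 reached 19.4 ± 1.04 CPM per kilobase, below Srebf2 by more than the spread. Mylip stood at 8.61 ± 0.735, Abcg1 at 3.84 ± 1.69 and Abca1 at 0.445 ± 0.135 CPM per kilobase. The stearoyl-CoA desaturases were unequal, with Scd2 at 4.87 ± 0.409 and Scd1 at 0.237 ± 0.102 CPM per kilobase. These paralogues are similar enough that reads may be split between them, so their levels are uncertain.

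**Figure D1:**
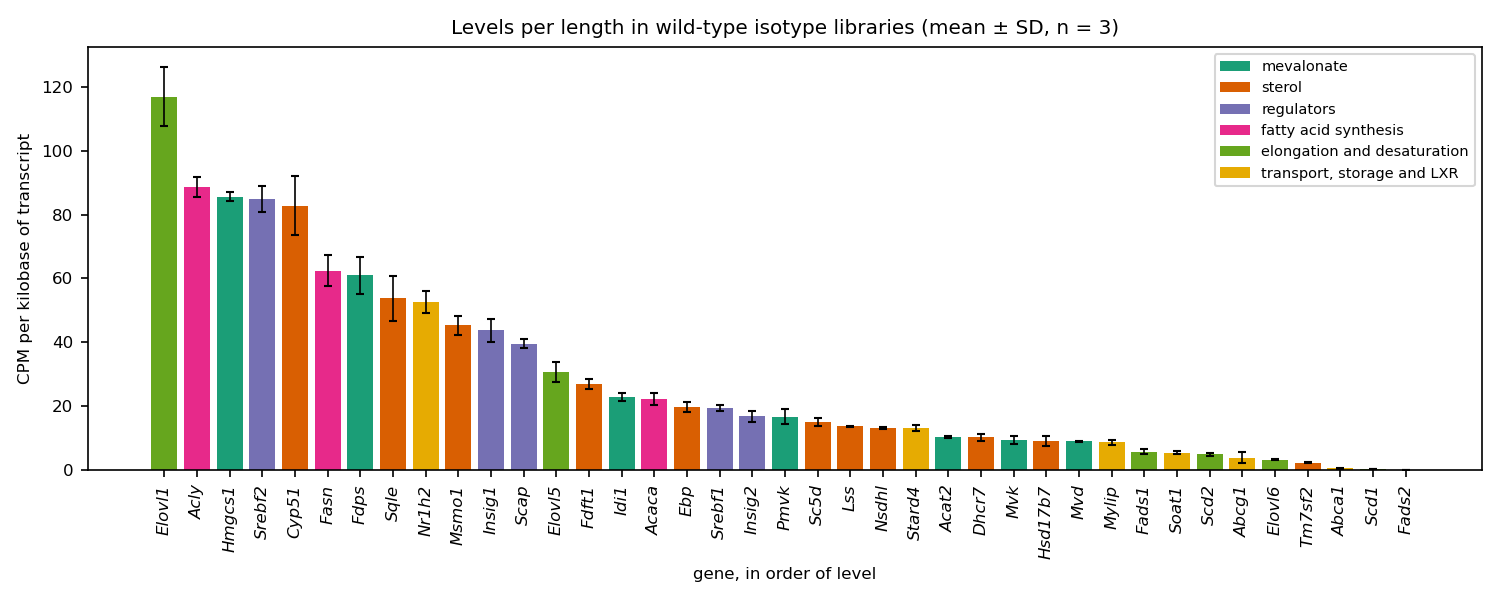
Mean level of each of the 39 genes in the 3 wild-type isotype libraries, in CPM per kilobase of transcript on the vertical axis, with genes in order of level and coloured by role. Error bars are SDs. Elovl1 is highest at 117 and the genes at the right end, Abca1, Scd1 and Fads2, are all under 1 CPM per kilobase.

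In wild-type cells, 2 of the 6 transport, storage and LXR genes fell and 1 gene of the mevalonate pathway rose on anti-CD40L. Abcg1, a sterol exporter, was 6.34-fold lower, Mylip, a ubiquitin ligase that marks lipoprotein receptors for breakdown, was 1.79-fold lower, and Idi1, the isopentenyl diphosphate isomerase, was 1.68-fold higher. These were the only members of the 38 tested that passed an adjusted p of 0.05 in edgeR's quasi-likelihood test, a share of 7.89%. Of all genes tested, 9.37% passed (2.91% higher and 6.46% lower), so the share among these genes was near the background. The 3 anti-CD40L libraries all lay above the 3 wild-type isotype libraries for 9 members and all below for 4, against 15.4% and 17.2% of all genes, and the members' shares were 23.7% and 10.5%. The median log2 fold change was 0.09 over the members and -0.01 over all genes.

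The mevalonate pathway builds isoprenoid units from acetyl-CoA, and its 7 members all had log2 fold changes above 0 on anti-CD40L, with a median of 0.21. Idi1 stood at 66.5, 67.4 and 73.0 CPM in wild-type isotype replicates 1 to 3 and at 130.0, 101.0 and 116.9 CPM on anti-CD40L. The groups did not overlap, and the lowest anti-CD40L library was well above the highest isotype library. Its log2 fold change was 0.75 (SE 0.19, edgeR adjusted p = 0.0302). The call held in 11 of 17 alternative analyses and was lost without isotype replicate 1 (adjusted p = 0.0879), 2 (0.0979) or 3 (0.0684), and without anti-CD40L replicate 1 (0.099) or 3 (0.0967).

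Hmgcs1, which catalyses the step before the HMG-CoA reductase, came close to the threshold. Its levels were 274.5, 282.9 and 276.4 CPM on isotype and 393.4, 337.9 and 341.1 CPM on anti-CD40L. The groups did not overlap, and the isotype libraries lay within a few CPM of each other. The log2 fold change of 0.36 (SE 0.11) had an adjusted p of 0.0524 in edgeR, and 8 of the 17 alternatives called it. Without KO-labelled replicate 1 or 3 the edgeR adjusted p was 0.0173 or 0.0177. Those libraries are outside the comparison but enter the filter, the scaling and the shared estimate of spread. Fdps, the farnesyl diphosphate synthase, gave 79.1, 93.6 and 80.1 CPM on isotype and 82.9, 91.0 and 99.9 CPM on anti-CD40L, and these ranges overlap. Mvk, the mevalonate kinase, gave 15.8, 16.3 and 12.6 against 12.7, 15.2 and 19.7 CPM, with wide overlap. Acat2, Mvk, Pmvk and Mvd, which make or phosphorylate and decarboxylate the early intermediates, had log2 fold changes from 0.07 to 0.24, with overlapping groups and adjusted p from 0.455 to 0.871 in edgeR. The row used for Mvd is a noncoding transcript of that gene.

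The promoters of the genes named above and below are shown because the classic inputs of SREBP are short sequences close to the start site: the sterol regulatory element and the CCAAT box, which NF-Y binds. Sequences are the 250 bases before the RefSeq start on GRCm38.p6, read 5′ to 3′ along the gene, for Hmgcs1 (chr13:119690101-119690350, plus strand), Idi1 (chr13:8885356-8885605, plus strand), Cyp51 (chr5:4104698-4104947, minus strand) and Mylip (chr13:45389492-45389741, plus strand). Capitals mark TCACNCCAC, a form of the sterol regulatory element, and CCAAT or its reverse complement ATTGG.
Hmgcs1: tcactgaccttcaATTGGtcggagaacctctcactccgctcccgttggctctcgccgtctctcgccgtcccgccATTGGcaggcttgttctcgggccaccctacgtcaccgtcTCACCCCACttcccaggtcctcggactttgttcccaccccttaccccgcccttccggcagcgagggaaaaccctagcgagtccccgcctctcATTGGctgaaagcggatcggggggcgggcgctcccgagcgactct
Idi1: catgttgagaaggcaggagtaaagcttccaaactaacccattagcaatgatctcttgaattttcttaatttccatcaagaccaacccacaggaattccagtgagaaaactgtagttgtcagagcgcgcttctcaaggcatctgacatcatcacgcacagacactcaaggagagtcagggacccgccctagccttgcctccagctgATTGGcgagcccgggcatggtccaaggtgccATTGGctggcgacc
Cyp51: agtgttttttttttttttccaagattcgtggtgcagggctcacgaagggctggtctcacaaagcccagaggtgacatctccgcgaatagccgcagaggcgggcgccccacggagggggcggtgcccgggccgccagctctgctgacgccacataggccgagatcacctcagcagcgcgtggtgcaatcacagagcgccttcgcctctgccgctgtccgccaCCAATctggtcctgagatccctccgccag
Mylip: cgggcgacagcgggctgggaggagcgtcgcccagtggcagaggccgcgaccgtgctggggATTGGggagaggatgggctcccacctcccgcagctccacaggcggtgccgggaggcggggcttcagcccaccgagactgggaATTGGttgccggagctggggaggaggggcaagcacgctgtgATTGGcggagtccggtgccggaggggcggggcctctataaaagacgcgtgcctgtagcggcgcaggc
The search ran over both strands of windows from 250 bases before to 50 after the start, with a match to every letter. TCACNCCAC was in the window of 1 of the 31 members with a promoter in the table, Hmgcs1, as TCACCCCAC beginning at position -137, and in 1.24% of all 32851 windows. CCAAT was in a window of 24 of the 31 members, in 25 of their 40 windows, and in 37.4% of all windows. Hmgcs1 held it at -237, -176 and -45 within the bases printed, Idi1 at -45 and -14, Cyp51 at -29, and Mylip at -190, -108 and -67. GGGCGG, the core of the Sp1 site, was in 30 of the 40 windows and 35.7% of all, and CACGTG, the E-box, in 8 and 7.15%. A match describes letters only. Mylip, which fell, holds as many CCAAT boxes in the printed bases as Hmgcs1.

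The sterol pathway turns farnesyl diphosphate into cholesterol, and none of its 11 members passed the test on anti-CD40L. Log2 fold changes were above 0 for 7 and below for 4, with a median of 0.12. Cyp51 gave 284.2, 340.3 and 352.5 CPM on isotype and 387.2, 381.6 and 451.0 CPM on anti-CD40L, so its groups did not overlap. It had a log2 fold change of 0.32 (SE 0.10, adjusted p = 0.0731 in edgeR), and 4 of the 17 alternatives called it, one being the fit without KO-labelled replicate 3 (adjusted p = 0.044). Without anti-CD40L replicate 3 it was 0.25 (SE 0.11, adjusted p = 0.168). Sqle, the squalene epoxidase, gave 126.8, 154.1 and 164.1 CPM on isotype and 167.5, 164.9 and 187.1 CPM on anti-CD40L. Its groups barely separated, with a log2 fold change of 0.22 (SE 0.11, edgeR adjusted p = 0.213). Sc5d, the lathosterol desaturase, had a log2 fold change of 0.27 (SE 0.11, edgeR adjusted p = 0.142) and groups that likewise did not overlap.

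The other members of the sterol pathway did not pass the test either. Lss, the lanosterol synthase, gave 62.4, 64.7 and 64.0 CPM on isotype and 65.7, 70.0 and 71.8 CPM on anti-CD40L, and Msmo1, the methylsterol monooxygenase, gave 85.9, 95.1 and 97.4 against 114.2, 100.4 and 104.5 CPM. Neither pair of groups overlapped, and the edgeR adjusted p was 0.52 for Lss and 0.307 for Msmo1. Fdft1, the squalene synthase, gave 102.3, 102.4 and 92.1 CPM on isotype and 105.9, 100.0 and 121.5 CPM on anti-CD40L, which overlap (0.14, SE 0.09). Nsdhl, Hsd17b7, Ebp and Dhcr7, which act late in the pathway, lay between -0.08 and 0.08 on the log2 scale. Tm7sf2, a sterol C14 reductase, gave 3.05, 3.14 and 3.44 CPM on isotype and 2.42, 2.43 and 0.0 CPM on anti-CD40L. Its groups did not overlap, but the last value is 0 counts in anti-CD40L replicate 3, where 3 counts would be 0.573 CPM. The log2 fold change of -0.85 had an SE of 0.61, and without that library it was -0.39 (SE 0.33).

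The mevalonate and sterol genes together made up 18 members, of which 14 had log2 fold changes above 0, against 5424 of 11256 genes tested. The 3 anti-CD40L libraries all exceeded the 3 isotype libraries for 7 of the 18 (38.9%, against 15.4% of all genes) and all lay below them for 1 (5.56%, against 17.2%). Their summed level was 1348, 1498 and 1485 CPM on isotype and 1755, 1634 and 1810 CPM on anti-CD40L. Every anti-CD40L library was thus above every isotype library, with Hmgcs1 and Cyp51 the main contributors to the sums. The median log2 fold change of 0.13 ran from 0.08 to 0.18 over the 17 alternatives, and was lowest without anti-CD40L replicate 3.

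**Figure D2:**
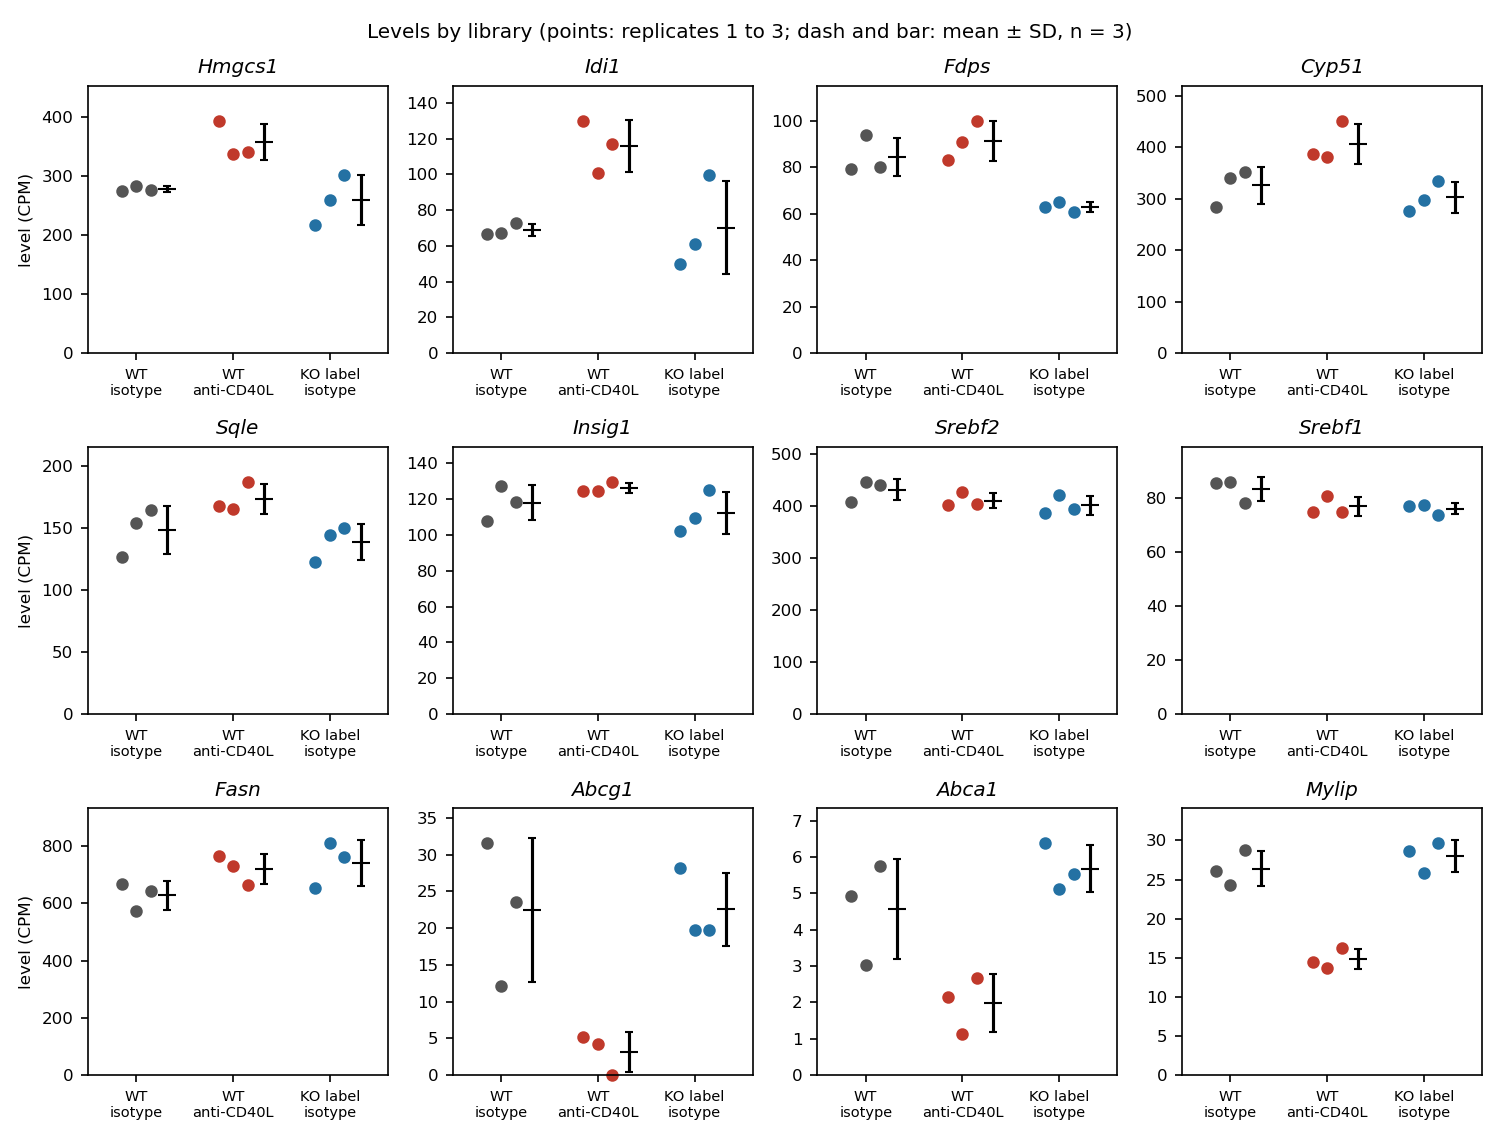
Level of 12 members in CPM (vertical axes, starting at 0) in each of the 9 libraries, with points for replicates 1 to 3 of each group and a dash and bar for the mean and SD. Idi1 and Hmgcs1 are higher in all 3 anti-CD40L libraries than on isotype, Abcg1, Abca1 and Mylip are lower, and Srebf2, Srebf1 and Insig1 overlap between these groups.

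The SREBP regulators gave no call. Srebf2 stood at 407.8, 446.0 and 439.8 CPM on isotype and 400.6, 425.8 and 403.9 CPM on anti-CD40L, a log2 fold change of -0.07 (SE 0.07). Srebf1 stood at 85.7, 86.0 and 78.1 against 74.8, 80.9 and 74.9 CPM, or -0.11 (SE 0.08). Both genes had overlapping groups with lower means on anti-CD40L. Scap gave 160.7, 170.9 and 170.8 against 156.2, 169.8 and 151.1 CPM, or -0.07 (SE 0.08). Of the retention factors, Insig1, itself an SREBP target, gave 107.9, 127.5 and 118.6 CPM on isotype and 124.7, 124.4 and 129.7 CPM on anti-CD40L, a log2 fold change of 0.10 (SE 0.09). Insig2, its partner, gave 19.3, 23.8 and 22.1 against 19.9, 20.0 and 13.8 CPM, with the low value in anti-CD40L replicate 3 (-0.26, SE 0.17, and -0.11 without that library). The edgeR adjusted p of the 5 regulators lay between 0.337 and 0.585.

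The fatty acid synthesis genes Acly, Acaca and Fasn had similar small differences that did not pass the test. Acly stood at 395.5, 377.3 and 404.6 CPM on isotype and 438.2, 443.8 and 463.6 CPM on anti-CD40L, a log2 fold change of 0.19 (SE 0.07, edgeR adjusted p = 0.119). Acaca, the acetyl-CoA carboxylase of the cytosol, stood at 214.8, 180.4 and 205.6 against 241.2, 228.6 and 215.2 CPM, and had the same log2 fold change of 0.19 (SE 0.10, edgeR adjusted p = 0.237). For both genes the groups did not overlap, but those of Acaca barely separated, at 214.8 against 215.2 CPM. Fasn, the fatty acid synthase, gave 668.8, 572.9 and 643.7 CPM on isotype and 766.6, 731.0 and 664.2 CPM on anti-CD40L, and its groups overlapped by 1 library on each side (0.20, SE 0.10). None of the 6 tested elongases and desaturases passed the test, with edgeR adjusted p from 0.454 to 0.841 and a median log2 fold change of 0.03. Scd2 was at 29.0, 24.7 and 25.9 CPM on isotype and 38.3, 26.0 and 28.3 CPM on anti-CD40L, with only anti-CD40L replicate 1 clearly higher (0.22, SE 0.18). Scd1 gave 1.43, 1.43 and 0.57 CPM on isotype and 0.99, 1.52 and 1.72 CPM on anti-CD40L, too low for a precise comparison (0.24, SE 0.60).

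The members that export, store or sense cholesterol held the largest differences. Abcg1 stood at 31.6, 12.1 and 23.5 CPM on isotype and at 5.2, 4.16 and 0.0 CPM on anti-CD40L. The isotype libraries spread widely, and still the lowest of them was above the highest anti-CD40L library. This was a log2 fold change of -2.66 (SE 0.52, edgeR adjusted p = 0.00849). Anti-CD40L replicate 3 had no count for Abcg1, against 58 and 41 in the other two, and without it the log2 fold change was -2.25 (SE 0.40, adjusted p = 0.00899). The call held in 16 of 17 alternatives and was lost in limma-voom (adjusted p = 0.0548).

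Mylip was the steadiest call of the set. It stood at 26.1, 24.3 and 28.8 CPM on isotype and 14.5, 13.7 and 16.2 CPM on anti-CD40L, with little spread in either group. Mylip's log2 fold change was -0.84 (SE 0.14, edgeR adjusted p = 0.00235), and all 17 alternatives called it. Abca1, the exporter that loads cholesterol onto apolipoprotein A-I, stood at 4.93, 3.04 and 5.74 CPM on isotype and 2.15, 1.12 and 2.68 CPM on anti-CD40L, from 11 to 55 counts a library. Its groups did not overlap, but the log2 fold change of -1.24 (SE 0.38) missed the threshold (edgeR adjusted p = 0.0549). It passed in 4 alternatives, among them the fit without anti-CD40L replicate 3 (-1.44, adjusted p = 0.0334). Nr1h2, the gene for LXR-beta, gave 104.0, 111.5 and 98.3 against 99.6, 102.4 and 97.8 CPM (-0.07, SE 0.08). The remaining members of the group were Soat1, which esterifies cholesterol for storage, and Stard4, a sterol carrier. Soat1 gave 42.0, 50.0 and 42.9 against 42.8, 43.7 and 31.9 CPM (-0.18, SE 0.14), and Stard4 gave 64.5, 63.6 and 72.4 against 86.1, 76.4 and 60.6 CPM (0.16, SE 0.15). Groups overlapped for each of Nr1h2, Soat1 and Stard4, and none passed the test.

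Some markers of other cells were also lower on anti-CD40L, and others were not. Of 7 myeloid markers, 3 could be tested and 2 of them, Ctss and Itgam, fell, against 6.46% of all genes called lower. Itgam was at most 2.6 CPM, and its call was lost in 6 alternatives, with adjusted p up to 0.152. Cd68, the third, had a log2 fold change of -0.12 (SE 0.39, edgeR adjusted p = 0.883). The summed level of the myeloid list ran from 80.5 to 92.1 CPM on isotype, 46.0 to 51.6 on anti-CD40L and 57.1 to 96.7 in the KO-labelled group, and was mostly Ctss, a protease gene. The defining myeloid genes Csf1r, Cd14 and Adgre1 had at most 3 counts in any library. Among B cell markers Fcer2a fell, from 11.7 ± 5.6 to 0.656 ± 0.782 CPM (SD, n = 3), while the antigen receptor genes Cd79a and Cd79b gave -0.14 (SE 0.63) and 0.42 (SE 0.58). Zbtb46, a dendritic cell marker, gave 1.06 (SE 0.59) and did not pass the test. The summed levels of the B cell list were 13.2 to 37.9 CPM on isotype, 1.72 to 13.3 on anti-CD40L and 7.1 to 16.3 in the KO-labelled group. In the KO-labelled group Abcg1 stood at 28.2, 19.7 and 19.7 CPM, overlapping wild-type isotype. In that group Fcer2a averaged 0.59 ± 0.272 CPM, and Cd79a and Cd79b averaged 2.86 and 1.65 CPM against 2.01 and 1.14 CPM on wild-type isotype. Itgam averaged 1.59 ± 0.612 CPM there, against 1.62 ± 0.876 on wild-type isotype and 0.191 ± 0.166 on anti-CD40L. Between anti-CD40L and the KO-labelled group Itgam was called lower too (-2.74, SE 0.75, edgeR adjusted p = 0.0437), in 5 of 17 alternatives. Ctss (-0.54, SE 0.17) and Cd68 (0.18, SE 0.39) were not called in that comparison. The part of these cells in the results was not tested. In bulk libraries, fewer cells of a type and less RNA per cell cannot be told apart.

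**Figure D3:**
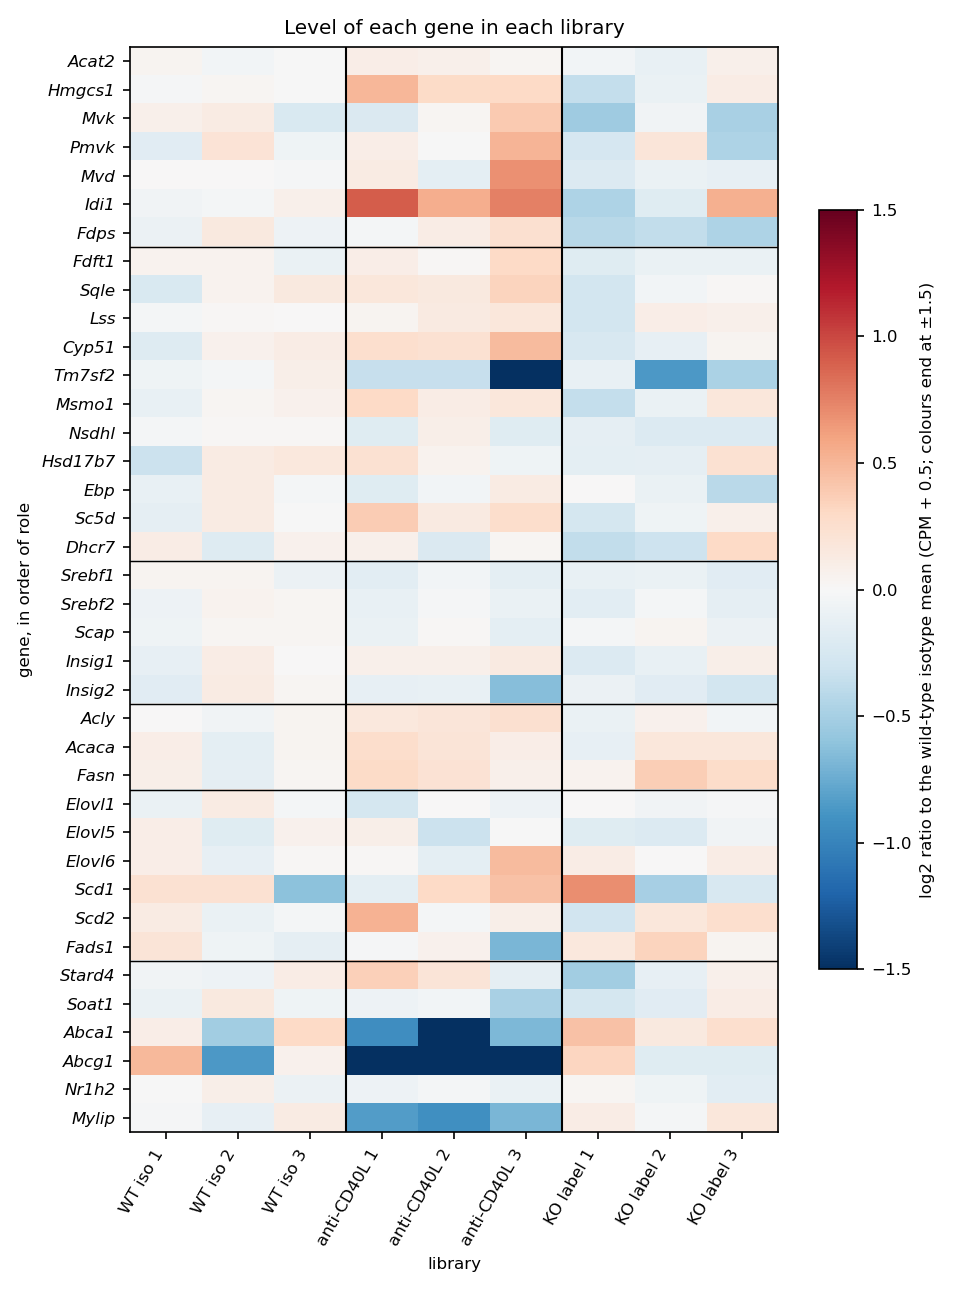
Log2 ratio of each of the 38 tested members (rows, in order of role) in each of the 9 libraries (columns) to the mean of the wild-type isotype libraries, after adding 0.5 CPM. Red is higher and blue lower, with colours ending at 1.5 in either direction. Idi1 is red and Abcg1, Abca1 and Mylip are blue in all 3 anti-CD40L libraries, and KO-labelled replicate 1 is pale blue over most of the mevalonate and sterol genes.

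With the isotype antibody, KO-labelled and wild-type cells gave no call among the 38 members, and 0.0% of all 11256 genes passed the test. At an unadjusted p under 0.05 there were 2 members and 649 genes in all, and DESeq2 called 1 member and 44 genes. The KO-labelled libraries all lay below the wild-type libraries for 5 members (Mvd, Fdps, Tm7sf2, Nsdhl and Srebf1) and all above for 0, against 7.62% and 7.61% of all genes. The members' log2 fold changes were below 0 for 28 of 38, with a median of -0.07, and over all genes 5559 of 11256 were below 0. Among the mevalonate and sterol genes 17 of 18 were below 0, with a median of -0.10.

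Fdps was the member that stood out most in this comparison. It gave 63.0, 64.9 and 60.8 CPM in the KO-labelled libraries against 79.1, 93.6 and 80.1 CPM in wild type, so the groups were well separated. That gave -0.42 on the log2 scale (SE 0.10), with an unadjusted p of 0.001 and an edgeR adjusted p of 0.366. DESeq2 and the fit with no filter on low counts called it, and the other 15 alternatives did not. The span of Fdps overlaps another annotated gene, Gm22935, whose reads could be counted with it. Fasn was higher in mean in the KO-labelled group (653.6, 812.1 and 761.3 CPM), at 0.24 (SE 0.10, edgeR adjusted p = 0.812), with overlapping groups. Mvk gave 10.1, 14.3 and 10.5 CPM (-0.36, SE 0.21) and Tm7sf2 gave 2.93, 1.54 and 2.16 CPM (-0.55, SE 0.58), neither passing the test. Abcg1 and Mylip had log2 fold changes of 0.00 (SE 0.47) and 0.09 (SE 0.13). Idi1 had 0.04 (SE 0.19), with KO-labelled levels of 50.1, 60.8 and 99.7 CPM that spread around those of wild type.

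Within a group, the same library was often lowest or highest over many of the synthesis genes. KO-labelled replicate 1 was lowest of its group for 12 of the 18 mevalonate and sterol genes, and KO-labelled replicate 3 highest for 10. Their summed levels over these genes were 1186, 1336 and 1486 CPM in replicates 1 to 3. Wild-type isotype replicate 1 was lowest of its group for 13 of the 18, and replicate 2 highest for 9. On anti-CD40L, replicate 2 was lowest for 10 and replicate 3 highest for 9, so the order of replicates was not shared by all groups. The median log2 fold change between KO label and wild type was -0.16 without KO-labelled replicate 3 and -0.03 without KO-labelled replicate 1, so it depended on which library was kept.

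Wild-type cells on anti-CD40L were last compared with KO-labelled cells on isotype, groups that differ in both antibody and genotype label. This comparison is the difference between the 2 above, which share the wild-type isotype libraries, and it reuses the anti-CD40L libraries. Fdps, Hmgcs1, Idi1 and Cyp51 were higher on anti-CD40L and Abca1, Abcg1 and Mylip lower, 7 of 38 members or 18.4%. Among all genes 6.83% passed (1.79% higher and 5.04% lower). The members' shares were 10.5% higher and 7.89% lower. Groups did not overlap for 8 members higher and 3 lower, against 10.3% and 15.9% of all genes. The 4 that rose all belong to the mevalonate and sterol pathways, where 17 of 18 members had log2 fold changes above 0, with a median of 0.29 that ran from 0.18 to 0.33 over the 17 alternatives. The median over all genes was -0.01.

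Fdps differed most clearly of the 4 that rose. Its anti-CD40L levels of 82.9, 91.0 and 99.9 CPM were all above the KO-labelled 63.0, 64.9 and 60.8 CPM. On the log2 scale the difference was 0.53 (SE 0.10, edgeR adjusted p = 0.0055), called in all 17 alternatives. Beside the wild-type isotype libraries, anti-CD40L gave 0.11 and the KO label -0.42, so most of the 0.53 came with the KO-labelled libraries. Hmgcs1 gave 0.46 (SE 0.11, edgeR adjusted p = 0.0204), from KO-labelled levels of 216.1, 259.1 and 301.4 CPM, all below those on anti-CD40L. It was not called without anti-CD40L replicate 1 (adjusted p = 0.0681), KO-labelled replicate 1 (0.0614) or KO-labelled replicate 2 (0.0715).

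Cyp51 stood at 275.3, 297.9 and 334.2 CPM in the KO-labelled group and gave 0.42 (SE 0.10, edgeR adjusted p = 0.0272). The call was lost without anti-CD40L replicate 3 (adjusted p = 0.0758), KO-labelled replicate 1 (0.0979) or KO-labelled replicate 2 (0.0934). Idi1 gave 0.72 (SE 0.19, edgeR adjusted p = 0.0423), with KO-labelled replicate 3 at 99.7 CPM just under the lowest anti-CD40L library at 101.0 CPM. Only 9 of the 17 alternatives called it, and leaving out anti-CD40L replicate 3 (adjusted p = 0.134), anti-CD40L replicate 1 (0.114), KO-labelled replicate 2 (0.166), or wild-type isotype replicate 2 (0.0609) or 3 (0.0565) was among the changes that lost it. Sc5d (0.34, SE 0.11), Sqle (0.31, SE 0.11) and Fdft1 (0.26, SE 0.09) did not pass the test, though their groups did not overlap.

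Of the transport, storage and LXR genes, Mylip gave -0.93 (SE 0.14, edgeR adjusted p = 0.00127) against KO-labelled levels of 28.6, 25.8 and 29.7 CPM, and was called in all 17 alternatives. Abcg1 gave -2.66 (SE 0.52, adjusted p = 0.00893, edgeR), and limma-voom alone did not call it (adjusted p = 0.0609). Abca1 stood at 6.39, 5.12 and 5.54 CPM in the KO-labelled group and gave -1.56 (SE 0.37, edgeR adjusted p = 0.0221). It was not called without anti-CD40L replicate 1 (adjusted p = 0.0586) or 2 (0.0641), or KO-labelled replicate 1 (0.0834) or 2 (0.0728). For Mylip, Abcg1 and Abca1 the wild-type isotype and KO-labelled groups overlapped, and both lay wholly above the anti-CD40L group. Without anti-CD40L replicate 3, 5 members were called: Fdps, Hmgcs1, Abca1, Abcg1 and Mylip.

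**Figure D4:**
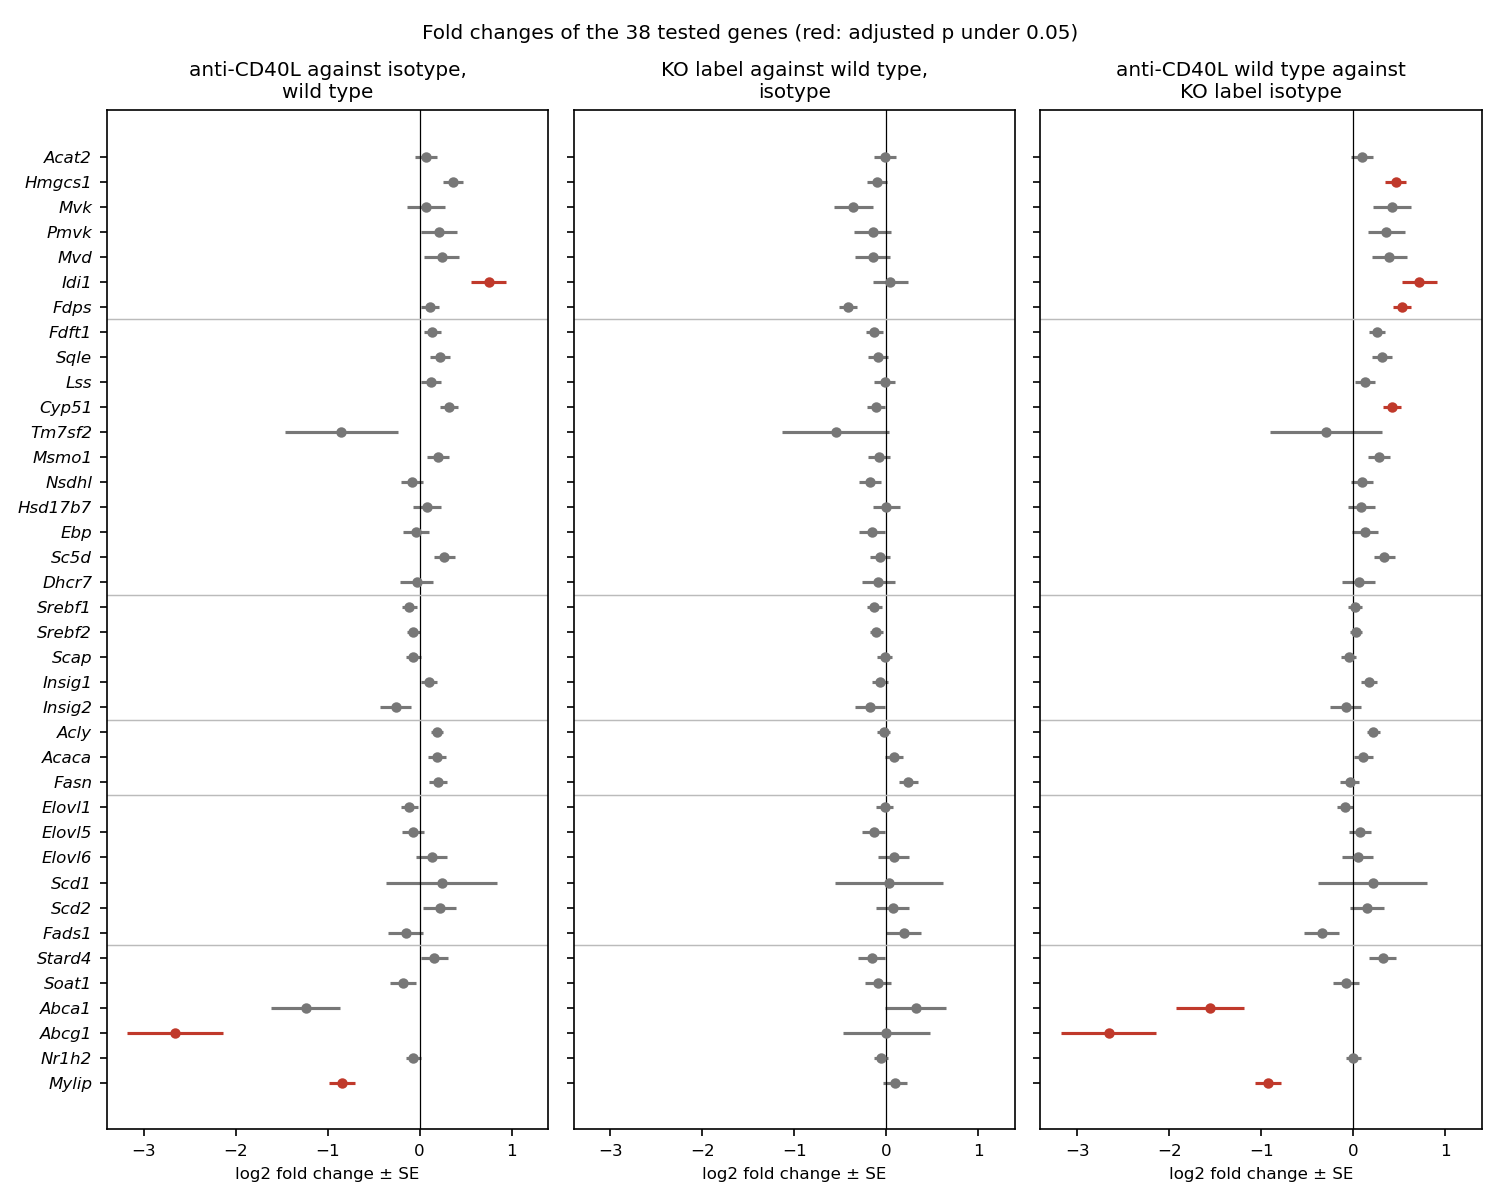
Log2 fold change and SE (horizontal axes) of the 38 tested members, ordered by role from the mevalonate pathway at the top to transport and LXR genes at the bottom, in the 3 comparisons. Red marks an adjusted p under 0.05: 3 members in the first panel, 0 in the second and 7 in the third.

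The called members sit apart in the genome (GRCm38), except that Hmgcs1 (chr13:119690351-119708260), Idi1 (chr13:8885606-8892396) and Mylip (chr13:45389742-45411940) share a chromosome without being neighbours. Fdps lies at chr3:89093588-89101967, Cyp51 at chr5:4080674-4104697, Abca1 at chr4:53030789-53159988 and Abcg1 at chr17:31057694-31117984. Counts cover the whole transcript of each gene, without a split by exon.

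Neighbouring pathways showed single calls and no common direction on anti-CD40L. The enzymes that supply acetyl-CoA and NADPH had 2 of 6 tested genes lower, the acetyl-CoA synthetases Acss1 and Acss2. That was 33.3%, against 6.46% of all genes called lower and 2.91% called higher, in a list too short to compare shares. Acss1, of the mitochondrion, fell from 21.8 ± 3.15 to 5.53 ± 1.58 CPM (SD, n = 3), a log2 fold change of -1.99 (SE 0.25, edgeR adjusted p = 0.000323), called in all 17 alternatives. It was lower than in the KO-labelled group too, which averaged 18.6 ± 4.17 CPM (-1.75, SE 0.24, edgeR adjusted p = 0.000849). Acss2, the cytosolic enzyme and an SREBP target, fell from 26.1 ± 1.56 to 13.4 ± 3.63 CPM, or -0.95 (SE 0.21, edgeR adjusted p = 0.0148), while Idi1 rose. Its call was lost without isotype replicate 1 (adjusted p = 0.0608) or 2 (0.0509), or anti-CD40L replicate 1 (0.0669). Against the KO-labelled group, the mitochondrial citrate carrier gene Slc25a1 was higher (0.50, SE 0.14, edgeR adjusted p = 0.0474), a call that held in 7 of 17 alternatives and was lost without any of the 6 isotype libraries of either genotype label or anti-CD40L replicate 3, with adjusted p up to 0.132.

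Among the genes of lipid handling beside the LXRs, Lipa, the lysosomal acid lipase, fell from 48.3 ± 5.07 to 33.2 ± 2.17 CPM on anti-CD40L (SD, n = 3), or -0.54 (SE 0.12, edgeR adjusted p = 0.0141), and was not called without isotype replicate 1 (adjusted p = 0.0797) or 3 (0.0706), or anti-CD40L replicate 1 (0.0749). Cpt1a, which admits fatty acids to the mitochondrion, was the 1 of 8 fatty acid oxidation genes called, from 48.0 ± 1.99 to 29.6 ± 8.87 CPM, or -0.72 (SE 0.20, edgeR adjusted p = 0.0384). That call made up 12.5% of its short list, against 6.46% of all genes called lower, and held in 9 of the 17 alternatives. It was lost without isotype replicate 1, 2 or 3, anti-CD40L replicate 1 or 2, or KO-labelled replicate 2, with adjusted p from 0.0589 to 0.124.

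On the rising side were 2 genes next to the mevalonate and elongation pathways. Nus1, a subunit of the dehydrodolichyl diphosphate synthase, was the 1 of 14 isoprenoid genes called, from 106 ± 3.88 to 144 ± 15.2 CPM (SD, n = 3), or 0.45 (SE 0.12, edgeR adjusted p = 0.0393). Hsd17b12, the ketoacyl-CoA reductase of fatty acid elongation, was the 1 of 7 in its list, from 148 ± 7.47 to 196 ± 16.1 CPM, or 0.40 (SE 0.11, edgeR adjusted p = 0.0389). These single calls were 7.14% and 14.3% of their short lists, against 2.91% of all genes called higher. Each call held in 10 of 17 alternatives and was lost without isotype replicate 1, 2 or 3, anti-CD40L replicate 1 or 3, or KO-labelled replicate 2. The adjusted p then reached up to 0.133 for Nus1 and 0.115 for Hsd17b12. None of 11 genes of SREBP processing passed the test in any comparison. No gene of these lists was called between the KO-labelled and wild-type isotype groups.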

How the data were processed

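RNA-seq of 9 libraries in 3 groups was read from 1 table. The authors' deposited values are estimated counts per RefSeq transcript, in multiples of 0.5. The submitters' processing notes name CASAVA 1.8.2, HISAT2 2.1.0 and mm10. No source used here names the counting tool or its use of strand. Counts were rounded up at 0.5, although whole counts had been planned for. The row of highest total stood for each of 25160 genes. Genes passing filterByExpr (11256) were tested with edgeR 4.0.16 (quasi-likelihood, TMM, all 9 libraries, R 4.3.3) in 3 comparisons, with Benjamini-Hochberg adjustment over all genes tested in a comparison and a threshold of 0.05. CPM uses TMM-scaled totals, and per-length values use GENCODE transcript lengths. The 17 alternatives were size factors of DESeq2 type, DESeq2 1.42.0, limma-voom 3.58.1 with and without quality weights, no filter, only the groups compared, a replicate block, summed transcript rows and 9 fits leaving out a library each. The main edgeR fit was tried on simulated counts for anti-CD40L against isotype, with 1 dispersion for all genes. The alternatives were not tried in this way. Members given library by library were the called ones, the 5 of largest difference per comparison and those of known role. The members and lists were chosen with earlier results of these data known. Some genes of the marker and pathway lists are not reported here.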

Additional observations from a re-analysis of the deposited data

How the results depend on the processing

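Over 1222 refits of 24 members in the 3 comparisons, 1172 kept their side of the threshold, 29 lost a call and 21 gained one. Changes of direction were counted only where the main fit or the refit made a call, and there were 0. Uncalled differences near 0 did change sign, such as Idi1 between KO label and wild type, which ran from -0.31 to 0.22. For anti-CD40L against isotype in wild type, members called numbered 3 in edgeR, 6 in DESeq2, 5 in limma-voom with quality weights, 6 with no filter, and 2 to 5 leaving out a library. All genes called numbered 1055 in edgeR, 1635 in DESeq2, 1698 with no filter and 486 to 1342 leaving out a library. For the KO label against wild type, where edgeR called 0, DESeq2 called 1 member and 44 genes, no filter 1 member and 102 genes, quality weights 32 genes, the 2 groups alone 3 genes, and leaving out a library 0 members and 0 to 2 genes. For anti-CD40L against the KO label, members called numbered 7, 4 with the 2 groups alone and 3 to 9 leaving out a library. All genes called numbered 769, 1219 in DESeq2, 1464 with quality weights, 1305 with no filter, 481 with the 2 groups alone and 346 to 1022 leaving out a library. The causes were not tested. Fits of the last 2 kinds also had fewer samples. In both comparisons with anti-CD40L, leaving out a library lowered the counts in some fits and raised them in others. Same-numbered libraries deviated with correlations of -0.149 to 0.18 and share only a number. With a replicate block, 4, 0 and 7 members and 954, 0 and 664 genes were called in the 3 comparisons. Low counts limit Scd1, Tm7sf2 and Abca1, whose SEs on anti-CD40L were 0.60, 0.61 and 0.38.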
